A study of Mus musculus with 6 samples.

Results

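The genes described here encode the enzymes that make and break down cyclic nucleotides and the RGS proteins that switch off G proteins. Members were all genes whose symbol in the array annotation starts with Adcy, Pde or Rgs followed by a digit, measured on probe sets that carry exactly 1 gene symbol. The rule found 58 members among 22180 genes, of which 9 are Adcy, 26 Pde and 23 Rgs genes, on 61 probe sets in all. Pde7a, Rgs2 and Rgs5 had more than 1 probe set, and each of these is represented by its brightest one over the 6 arrays. Adcy3 shares its probe set with another symbol and was therefore not a member. The name rule also took in Pde12, Pde6d and Pde4dip, which do not hydrolyze cyclic nucleotides, and Rgs7bp and Rgs9bp, which bind RGS proteins without being RGS proteins themselves.

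Total RNA was measured on Affymetrix Mouse Gene 2.0 ST arrays in 3 brain regions of 2 untreated adults of strain C57BL/6, numbered mouse 355 and mouse 511, with 1 array for each region and mouse. The strain label is blank for the nucleus of mouse 511, for which the strain comes from the shared protocol text. The regions were the parvafox nucleus, a small cell group of the lateral hypothalamus that holds parvalbumin neurons, the cerebral cortex (piriform and entorhinal) and the hippocampus (CA2 to CA3 area). The tissue was cut out by laser, with the nucleus located on neighboring sections stained by the lectin Vicia villosa, a marker of perineuronal nets, and its RNA was amplified before hybridization. The samples are thus whole pieces of tissue and not sorted neurons, so that fewer cells of a type and less RNA per cell cannot be told apart. The comparison asked in which region each gene had the higher signal within the same brain.

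Adenylyl cyclases make cAMP when G proteins or calcium stimulate them, and phosphodiesterases hydrolyze cAMP, cGMP or both. RGS proteins speed up the GTP hydrolysis of G protein alpha subunits and so end the signal of the receptor upstream. The isoforms of these families differ in the signals that regulate them and, in the brain, in the neurons that express them.

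Values are log2 signals after RMA, a normalization that makes the arrays comparable for 1 probe set but does not allow levels of different genes to be compared. The medians of the arrays lay between 3.54 and 3.68, and the arrays of the 2 mice correlated over all probe sets with a Pearson's r of 0.954 (nucleus), 0.967 (cortex) and 0.972 (hippocampus). The mice differed in the sex-linked transcripts Xist, at 6.39 to 6.98 in mouse 355 and 3.50 to 3.85 in mouse 511, and Kdm5d, at 2.36 to 2.76 and 4.82 to 5.70, so that animal and sex cannot be told apart. Of the hypothalamic markers, Pmch (melanin-concentrating hormone) read 10.25 and 9.81 in the nucleus of mouse 355 and mouse 511 and 2.96 to 4.19 on the other 4 arrays, whereas Hcrt (orexin) lay between 2.73 and 3.74 on all 6. Slc17a7, the vesicular glutamate transporter of cortical neurons, read 4.13 and 3.27 in the nucleus and 9.51 to 9.96 elsewhere. The cortex array of mouse 511 stood apart in its striatal markers, as described below, and the counts against the cortex are also given without it. The cortex array of mouse 355 differed too, as 6 of 7 markers of excitatory neurons read lower on it than in mouse 511. Of these, 2 were at least 2-fold lower, Neurod6 (5.27 beside 9.28) and Tbr1 (4.40 beside 6.03). Values without the cortex array of mouse 511 rest on that array alone for the cortex, and are not the cleaner ones.

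Of the 58 members, 45 had a mean signal above the median probe set (3.62), and 40 lay above the median of their own array on all 6 arrays. The members below their array's median on all 6 arrays were 11, namely Adcy10 (the soluble cyclase), the photoreceptor genes Pde6a, Pde6b, Pde6c and Pde6g, Rgs1, Rgs13, Rgs18, Rgs21, Rgs22 and Rgs9bp. In 33 members all within-mouse differences between regions stayed below 2-fold, a count for which the share of all genes was not taken. A smaller number stood apart, most of them with a lower signal in the nucleus. In both mice, Adcy1 and Pde2a had nucleus signals at least 2-fold below those of both other regions, and Pde1a, Pde1b, Pde7b, Rgs14 and Rgs7bp were so against 1 of the regions. Rgs17 alone exceeded its hippocampal signal at least 2-fold in the nucleus of both mice, and Pde8a, Rgs6 and Rgs8 exceeded theirs at an unadjusted p under 0.05.

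**Figure D1:**
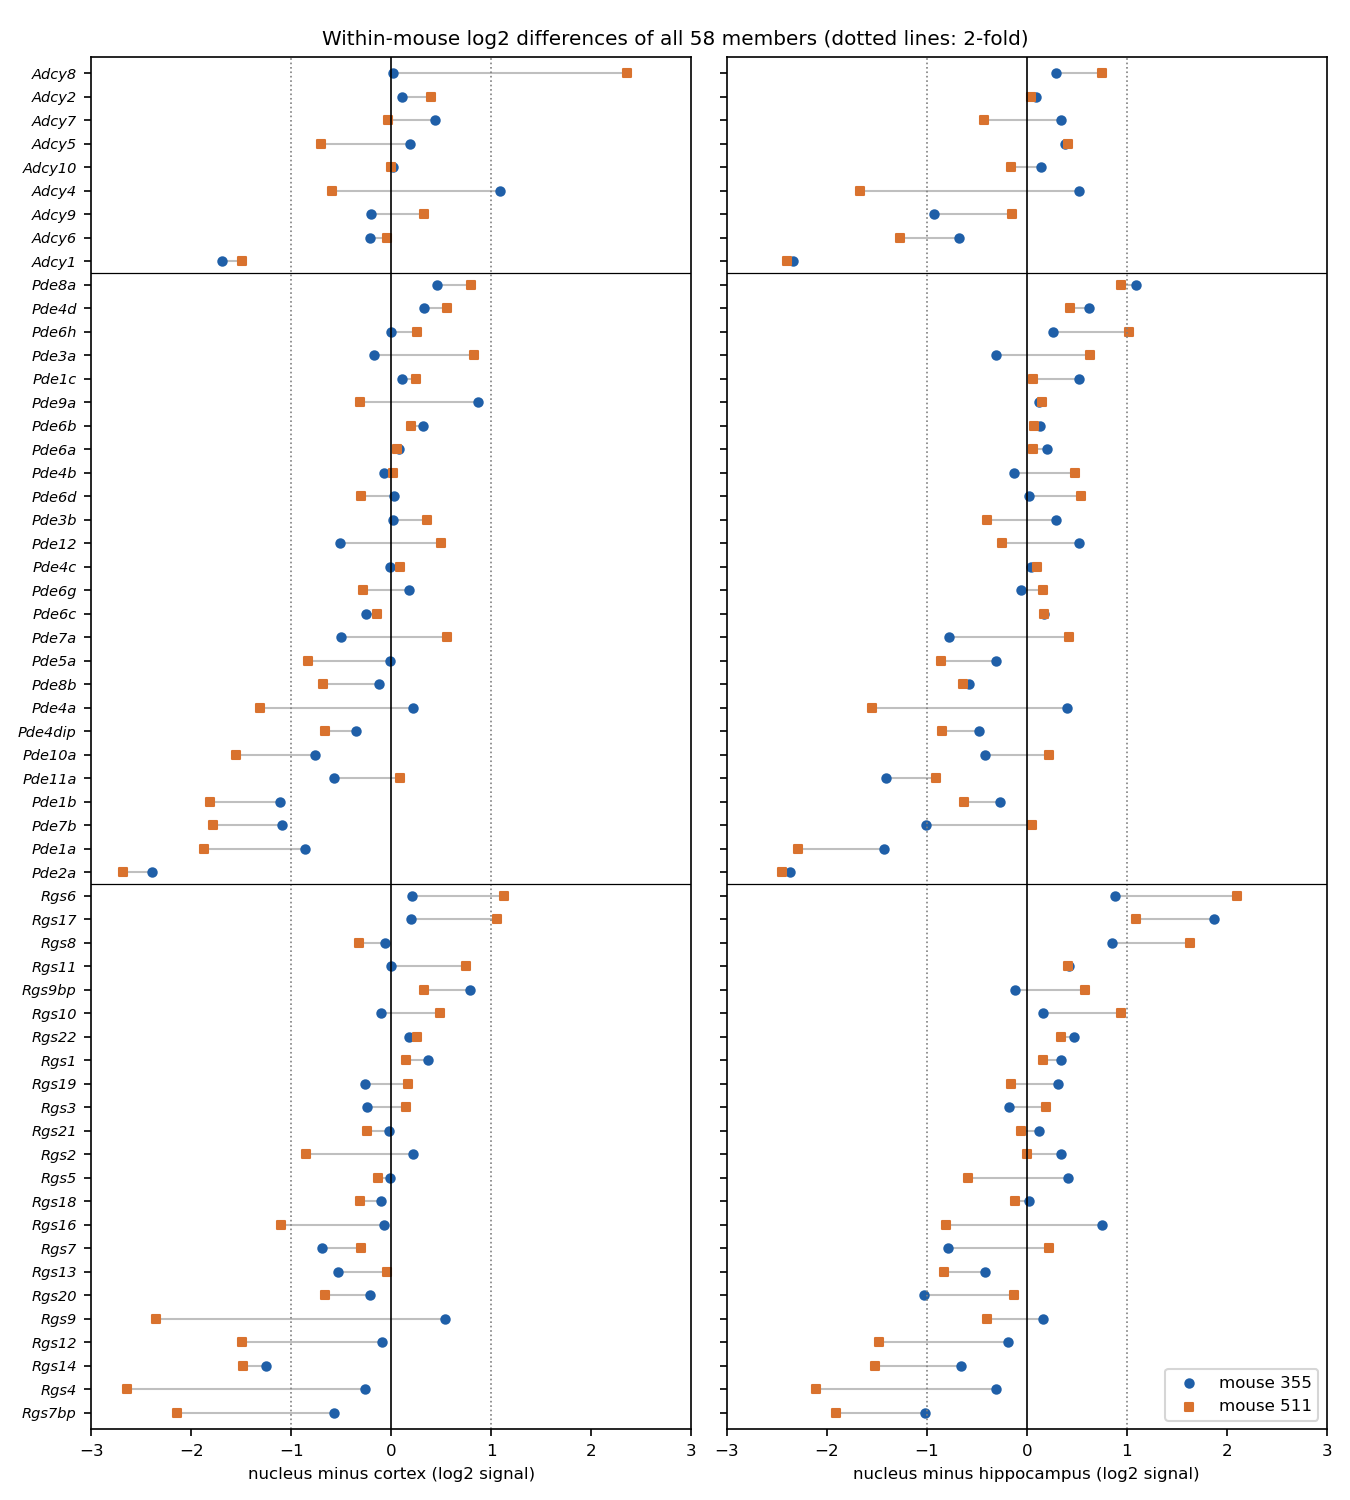
Log2 signal of the nucleus minus that of the cortex (left) and of the hippocampus (right) within mouse 355 (blue circles) and mouse 511 (orange squares) for the 58 members, ordered within each family by the mean difference. Adcy1 and Pde2a lie left of the 2-fold line with all 4 of their points, and no member lies right of it with all 4.

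None of these differences passed limma's moderated test after Benjamini-Hochberg adjustment over 41155 probe sets. At an adjusted p under 0.05, 0 members were called in each of the 3 comparisons, where the background over all probe sets was 0% for nucleus against cortex, 0.00243% (1 probe set) for nucleus against hippocampus and 0% for cortex against hippocampus. The smallest adjusted p of a member was 0.236 against the cortex and 0.15 against the hippocampus, both for Pde2a, and 0.98 between cortex and hippocampus for Rgs8. The call depended on the setting for 2 members, since Adcy1 and Pde2a passed against the hippocampus when only probe sets of 1 symbol were tested (limma adjusted p = 0.0397 for both), and Pde2a passed there without the mouse block (limma adjusted p = 0.0426). With 2 mice per region and mouse as a block, the fit had 2 residual degrees of freedom beside 2.767 prior ones. The p-values therefore rest on how far the region differences varied between these 2 animals, moderated by the spread over all probe sets.

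Counts of members at an unadjusted p under 0.05 or at least 2-fold apart in both mice are therefore descriptions, to be read against the share of all 22180 genes. Against the cortex, 8 members (13.8%) were lower in the nucleus at an unadjusted p under 0.05, where 4.68% of all genes were, and 5 members (8.62%) were at least 2-fold lower in both mice, where 0.956% were. In the other direction 1 member, Pde8a, had an unadjusted p under 0.05 (background 3.18%), and 0 were at least 2-fold higher (background 0.415%). Against the hippocampus, 9 members (15.5%) were lower at an unadjusted p under 0.05 (background 5.89%) and 4 (6.9%) at least 2-fold lower in both mice (background 1.52%), while 4 (6.9%) were higher by the p (background 4.52%) and 1 was 2-fold higher (background 0.987%). In all 4 comparisons of the nucleus, 2 members (3.45%) were at least 2-fold lower, where 0.672% of genes were, and 0 were 2-fold higher, where 0.216% were. The excess on the lower side was also present among genes brighter than the median probe set, where 5 of 45 members (11.1%) and 1.56% of 13609 genes were at least 2-fold lower than in the cortex, and 4 (8.89%) and 2.44% at least 2-fold lower than in the hippocampus. The median member was displaced little, with a log2 difference of -0.06 against the cortex and under 0.01 in size against the hippocampus, beside 0.01 and 0.02 over all genes.

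The counts in single mice are larger and have their own background. In mouse 511 alone, that is without the nucleus or the cortex array of mouse 355, 13 members had a nucleus signal at least 2-fold below the cortex (22.4%, background 4.77%), and in mouse 355 alone, without the nucleus or the cortex array of mouse 511, 5 did (8.62%, background 2.41%). Against the hippocampus the corresponding counts were 10 (17.2%, background 5.33%) and 7 (12.1%, background 3.34%). Without the cortex array of mouse 511, which leaves 1 cortex array, the 8 members lower than in the cortex kept their direction. Their log2 differences were -2.41 (Pde2a), -1.71 (Adcy1), -1.47 (Rgs14) and -1.20 (Pde1b). Those of Pde1a (-1.08), Pde7b (-0.83), Rgs7bp (-0.80) and Pde10a (-0.60) were smaller in size than with all arrays. For counts at an unadjusted p with 1 array left out, given at the end, the share of all genes was not taken.

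The bases upstream of the annotated start are shown for 4 of the members whose results follow, to set genes of opposite direction side by side. Adcy1 and Rgs7bp had lower and Pde8a and Rgs17 higher nucleus signals, each has 1 start in the sequence table, and they were picked after their values were seen. Each line holds 250 bases before the start (RefSeq, assembly GRCm38.p6), read from 5' to 3' on the strand of the gene. Capitals mark the cAMP response element core TGACG and the GC box GGGCGG on either strand.
Adcy1 (chr11:7063183-7063432, plus strand): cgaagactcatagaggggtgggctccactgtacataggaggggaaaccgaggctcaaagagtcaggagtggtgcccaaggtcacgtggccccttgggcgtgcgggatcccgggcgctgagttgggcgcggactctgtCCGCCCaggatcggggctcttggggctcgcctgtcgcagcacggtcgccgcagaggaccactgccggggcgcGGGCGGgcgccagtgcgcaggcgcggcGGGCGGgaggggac
Rgs7bp (chr13:105054931-105055180, minus strand): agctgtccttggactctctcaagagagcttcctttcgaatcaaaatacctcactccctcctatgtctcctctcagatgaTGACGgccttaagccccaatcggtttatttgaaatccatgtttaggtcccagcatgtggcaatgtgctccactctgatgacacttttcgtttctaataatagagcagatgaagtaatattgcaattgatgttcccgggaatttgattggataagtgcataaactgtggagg
Rgs17 (chr10:5922401-5922650, minus strand): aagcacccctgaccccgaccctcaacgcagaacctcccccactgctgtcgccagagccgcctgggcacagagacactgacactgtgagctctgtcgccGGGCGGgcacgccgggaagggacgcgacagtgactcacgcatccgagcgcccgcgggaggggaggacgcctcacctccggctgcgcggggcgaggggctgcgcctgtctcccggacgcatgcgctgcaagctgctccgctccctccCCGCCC
Pde8a (chr7:81213015-81213264, plus strand): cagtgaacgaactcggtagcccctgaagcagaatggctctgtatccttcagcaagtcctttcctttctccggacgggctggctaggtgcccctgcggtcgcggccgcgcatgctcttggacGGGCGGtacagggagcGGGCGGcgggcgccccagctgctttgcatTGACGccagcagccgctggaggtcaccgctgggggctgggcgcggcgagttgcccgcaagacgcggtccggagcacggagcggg
Adcy1 held 3 GC boxes, the nearest 14 bases before the start, and no TGACG. Rgs17 held 2 GC boxes and no TGACG. Rgs7bp held 1 TGACG, beginning 171 bases before the start, and no GC box, and Pde8a held both, with TGACG 84 bases before the start. The window of Rgs7bp was poor in G and C (43.2%) beside those of Adcy1 (71.2%), Rgs17 (72.4%) and Pde8a (68.8%). Among the 72 windows found for 42 members, 18.1% held TGACG, where 17.8% of all 32851 windows did, and 37.5% held GGGCGG, where 32.7% did. Counted by gene, with a match in any of its windows, 13 of the 42 members (31%) held TGACG and 23 (54.8%) held GGGCGG, where 19.8% and 35.4% of all genes in the table did. The members had more windows per gene than the 27025 genes of all 32851 windows, which alone raises their share by gene. The full palindrome TGACGTCA, which contains TGACG, was in 0 of the 72 and in 1.55% of all windows. A match of letters is a description and does not show a bound site.

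Among the cyclases, Adcy1, which calcium and calmodulin stimulate, had the clearest order of regions. Its log2 signals, mouse 355 first and mouse 511 second here and below, were 4.81 and 5.43 (nucleus), 6.50 and 6.93 (cortex) and 7.15 and 7.83 (hippocampus). The nucleus was lowest, the cortex next and the hippocampus highest in each mouse, and the values of the 3 regions did not overlap. The hippocampus exceeded the nucleus 5.16-fold (log2 difference -2.37, SE 0.19, limma adjusted p = 0.15) and the cortex exceeded it 3.02-fold (log2 difference -1.59, SE 0.19, limma adjusted p = 0.31). The step from cortex to hippocampus was smaller (log2 difference -0.77, SE 0.19, limma adjusted p = 0.98).

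Adcy8, the other calcium-stimulated cyclase among the members, behaved differently and is named here after its values were seen. It read 5.75 and 6.63 (nucleus), 5.73 and 4.28 (cortex) and 5.46 and 5.88 (hippocampus). One array, the cortex of mouse 511, was low, and the other 5 values lay between 5.46 and 6.63. Adcy6, which calcium inhibits, read 4.36 and 4.36 (nucleus), 4.57 and 4.40 (cortex) and 5.03 and 5.62 (hippocampus). Both hippocampal values were above all 4 others, with a log2 difference between nucleus and hippocampus of -0.97 (SE 0.26, limma adjusted p = 0.388). Of the 9 cyclases, 6 were lower in the cortex than in the hippocampus in both mice and 1 was higher. Over all genes 24.5% were lower in both mice in that comparison. The remaining cyclases, Adcy2, Adcy4, Adcy7 and Adcy9 among them, showed no difference of 2-fold or more that both mice shared.

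Pde2a, a phosphodiesterase that hydrolyzes cAMP and cGMP and is activated by cGMP, had the largest mean difference of any member. Its signal was 6.40 and 6.39 (nucleus), 8.78 and 9.07 (cortex) and 8.76 and 8.84 (hippocampus). The nucleus arrays lay far below the other 4, which overlapped between cortex and hippocampus. The fold was 5.8 in favor of the cortex (log2 difference -2.54, SE 0.19, limma adjusted p = 0.236) and 5.3 in favor of the hippocampus (log2 difference -2.41, SE 0.19, limma adjusted p = 0.15).

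The Pde1 enzymes, which calcium and calmodulin activate and which hydrolyze both cyclic nucleotides, did not share 1 pattern. Pde1a read 6.52 and 6.19 (nucleus), 7.38 and 8.06 (cortex) and 7.95 and 8.47 (hippocampus). It was lowest in the nucleus in each mouse, 3.62-fold below the hippocampus (log2 difference -1.86, SE 0.31, limma adjusted p = 0.263) and 2.58-fold below the cortex, where the difference in mouse 355 alone missed the 2-fold line. Pde1b read 6.71 and 6.61 (nucleus), 7.82 and 8.42 (cortex) and 6.98 and 7.24 (hippocampus). This gene was high in the cortex only, 2.76-fold above the nucleus (log2 difference -1.46, SE 0.24, limma adjusted p = 0.394) and with a log2 difference of 1.01 to the hippocampus (SE 0.24, limma adjusted p = 0.98). Pde1c was even across the regions, between 3.40 and 4.18.

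Pde7b, specific for cAMP, read 6.33 and 7.12 (nucleus), 7.42 and 8.90 (cortex) and 7.33 and 7.06 (hippocampus). Within each mouse the cortex exceeded the nucleus by more than 2-fold, and the mean log2 difference was -1.43 (SE 0.44, limma adjusted p = 0.574), or -0.83 (SE 0.45, limma adjusted p = 1) without the cortex array of mouse 511. The cortex array of mouse 511 was the highest by a wide margin, and that of mouse 355 was close to the hippocampus. Pde10a, a phosphodiesterase known for its high level in striatal projection neurons and named after its values were seen, read 5.38 and 6.32 (nucleus), 6.14 and 7.87 (cortex) and 5.80 and 6.09 (hippocampus). It followed Pde7b in having its highest value on that same array, and its 2 other regions overlapped.

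Pde8a, a cAMP-specific enzyme with high affinity, was the member that differed toward the nucleus against both regions at an unadjusted p under 0.05. It read 5.85 and 6.54 (nucleus), 5.40 and 5.74 (cortex) and 4.76 and 5.60 (hippocampus). In each mouse the nucleus was highest and the hippocampus lowest, and the nucleus values did not overlap with either region. The log2 difference was 0.63 to the cortex (SE 0.21, limma adjusted p = 0.599) and 1.01 to the hippocampus (SE 0.21, limma adjusted p = 0.312). Against the cortex its unadjusted p was no longer under 0.05 without the mouse block, with an intensity trend in the variance, or without either hippocampus array, which left 0 such members, nor without the cortex array of mouse 511 (log2 difference 0.42, SE 0.29).

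Pde11a, a dual-specificity enzyme known from ventral hippocampal neurons, read 3.15 and 3.15 (nucleus), 3.72 and 3.06 (cortex) and 4.56 and 4.06 (hippocampus). It lay near or below the median probe set in nucleus and cortex and above it in the hippocampus, without overlap. The nucleus differed from the hippocampus by a log2 difference of -1.16 (SE 0.24, limma adjusted p = 0.31) and the cortex by -0.92 (SE 0.24, limma adjusted p = 0.999). Pde4dip, a Golgi and centrosome protein that binds Pde4 enzymes, and Pde8b, the paralog of Pde8a, were the other phosphodiesterase-named members lower than in the hippocampus at an unadjusted p under 0.05, with log2 differences of -0.66 and -0.61. The cAMP-specific enzymes Pde4b, Pde4c and Pde4d stayed within 2-fold in every comparison. Pde4a, named after its values were seen, read 6.32 and 4.90 (nucleus), 6.11 and 6.22 (cortex) and 5.92 and 6.45 (hippocampus). Only the nucleus of mouse 511 was low. The photoreceptor genes Pde6a, Pde6b, Pde6c and Pde6g stayed between 2.15 and 3.42 on all arrays. Pde6h, the inhibitory subunit of cones, read 4.31 and 4.54 (nucleus), 4.31 and 4.28 (cortex) and 4.05 and 3.51 (hippocampus), with the hippocampus lowest in each mouse and 2-fold below the nucleus in mouse 511 only.

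**Figure D2:**
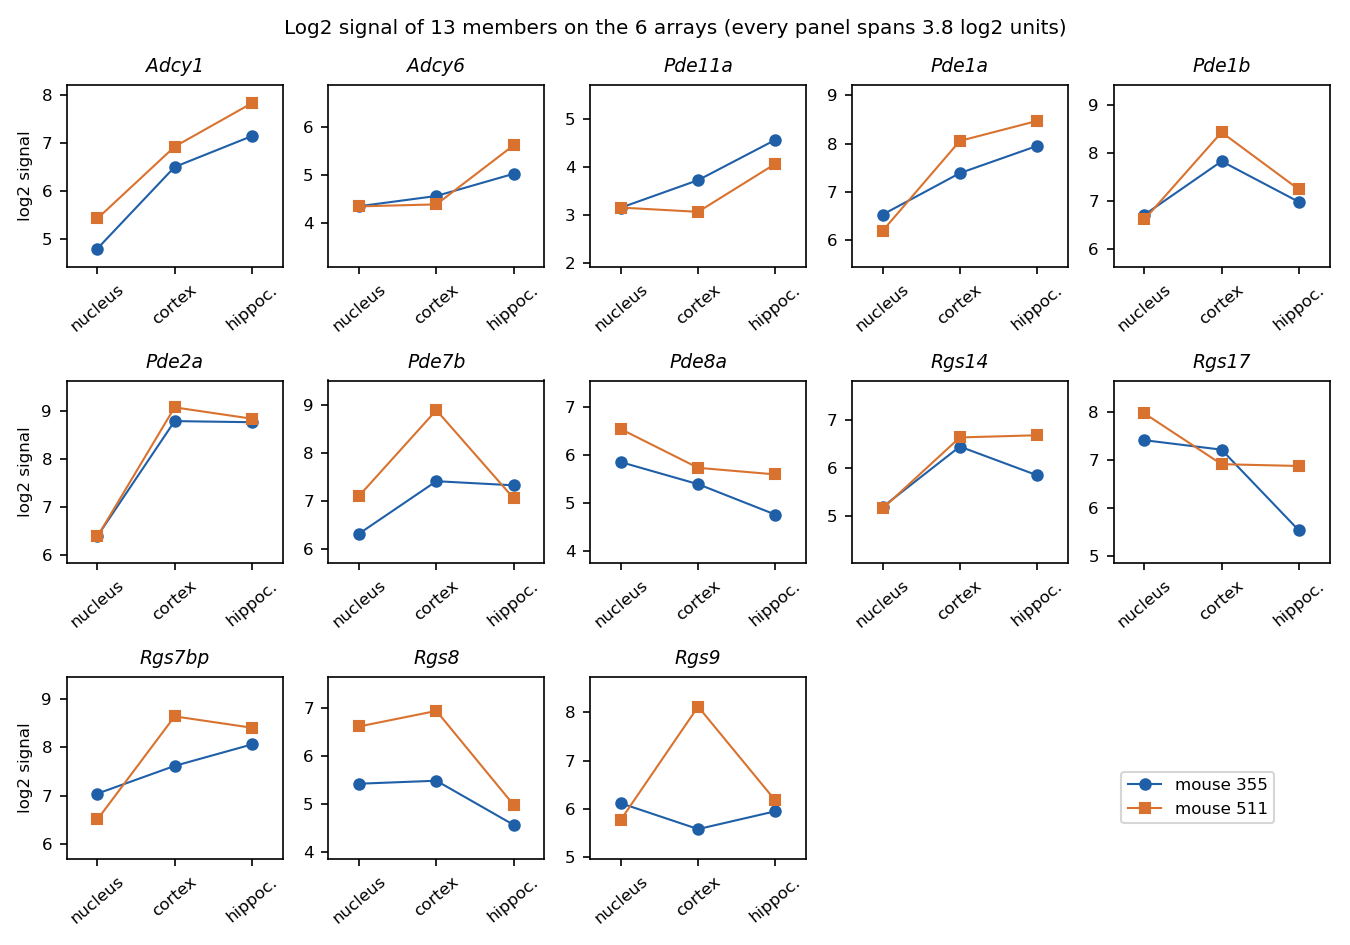
Log2 signal (vertical axis) of the 13 members named by the rule in the nucleus, cortex and hippocampus, with 1 line per mouse (blue circles mouse 355, orange squares mouse 511). Each panel spans the same number of log2 units around its own center, so slopes but not heights can be compared. Adcy1 and Pde2a are lowest in the nucleus in both mice, and Rgs9 departs from its other 5 values on the cortex array of mouse 511 (8.12).

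Among the RGS proteins the member with the steadiest difference was Rgs14, of the R12 subfamily, a scaffold known from CA2 neurons. Rgs14 read 5.19 and 5.16 (nucleus), 6.45 and 6.64 (cortex) and 5.85 and 6.68 (hippocampus). The nucleus was below every cortical and hippocampal value, and cortex and hippocampus overlapped. The log2 difference was -1.37 to the cortex (SE 0.27, limma adjusted p = 0.458) and -1.09 to the hippocampus (SE 0.27, limma adjusted p = 0.365), the latter with mouse 355 below 2-fold. Rgs7bp, the membrane anchor of the R7 RGS proteins, read 7.04 and 6.50 (nucleus), 7.62 and 8.65 (cortex) and 8.06 and 8.41 (hippocampus). It was again lowest in the nucleus in both mice, with log2 differences of -1.36 (SE 0.40, limma adjusted p = 0.569) and -1.46 (SE 0.40, limma adjusted p = 0.401). Against the cortex the difference was -0.58 in mouse 355 and -2.14 in mouse 511. Without the cortex array of mouse 511 it was -0.80.

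Rgs17, Rgs6 and Rgs8 had their lowest signal in the hippocampus of each mouse. Rgs17, of the RZ subfamily that acts on Gz and Gi proteins, read 7.42 and 7.97 (nucleus), 7.22 and 6.92 (cortex) and 5.54 and 6.88 (hippocampus). The nucleus exceeded the hippocampus at least 2-fold in both mice (log2 difference 1.48, SE 0.42, limma adjusted p = 0.409), but in mouse 511 only just, and after centring of each array on its median the count of members 2-fold higher went from 1 to 0. Rgs6, an R7 protein that works with Gnb5 and is named after its values were seen, read 5.61 and 6.70 (nucleus), 5.40 and 5.57 (cortex) and 4.72 and 4.60 (hippocampus). The nucleus was highest in each mouse and the hippocampus lowest, with a log2 difference of 1.49 between them (SE 0.34, limma adjusted p = 0.333). Rgs8, an R4 protein acting on Gi and Gq, read 5.42 and 6.61 (nucleus), 5.48 and 6.93 (cortex) and 4.56 and 4.98 (hippocampus). Nucleus and cortex overlapped, both lay above the hippocampus, and the log2 differences to it were 1.24 (SE 0.31, limma adjusted p = 0.361) and 1.44 (SE 0.31, limma adjusted p = 0.98).

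Rgs4, an R4 protein abundant in cortical neurons and named after its values were seen, read 8.45 and 6.88 (nucleus), 8.72 and 9.52 (cortex) and 8.76 and 8.99 (hippocampus). Its low nucleus value came from mouse 511 only, and in mouse 355 the 3 regions were within 2-fold. Rgs2 and Rgs5 were bright in all regions, at 8.51 to 9.37 and 8.68 to 9.38. In mouse 511 the dimmer probe set of Rgs2 gave a log2 difference of -1.42 between nucleus and cortex, where the brighter one gave -0.85. Between nucleus and hippocampus of that mouse it gave -0.82, where the brighter one gave no difference. The dimmer one of Rgs5 gave 0.62 between nucleus and cortex in mouse 511, where the brighter one gave -0.13. Of the 23 Rgs members, 12 had a lower signal in the nucleus than the cortex of both mice (52.2%, beside 26.5% of all genes), and 7 of the 10 of the R4 subfamily were. Of these 12, Rgs13, Rgs18 and Rgs21, all R4, were below the median of their array on all 6 arrays. Rgs5, also R4, is among the 12 by its brighter probe set (log2 differences -0.02 and -0.13). Its dimmer one was higher in the nucleus than the cortex of both mice (0.16 and 0.62). In mouse 355 alone, 15 of the 23 were lower, where 49.5% of all genes were. Most of these differences were small, as 1 of the 23, Rgs14, was at least 2-fold lower in both. Several of these genes adjoin on chromosome 1, where Rgs2, Rgs13, Rgs1, Rgs21 and Rgs18 follow one another, as do Rgs8 and Rgs16, and Rgs5 and Rgs4. Rgs2 was above the median of its array on all 6 arrays, and the next 4 genes were below it on all 6.

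Between cortex and hippocampus fewer members differed. At an unadjusted p under 0.05, Pde10a, Pde1b and Rgs8 were higher in the cortex (3 members, 5.17%, background 2.02%) and Adcy1, Adcy6 and Pde11a lower (3 members, 5.17%, background 2.18%). In both mice together, 0 members were at least 2-fold higher (background 0.307%) and 0 at least 2-fold lower (background 0.198%). Of the 23 Rgs members, 10 (43.5%) were higher in the cortex in both mice, where 27.1% of all genes were, and 0 were lower, where 24.5% were. The 10 include Rgs18, Rgs21 and Rgs22, which were below the median of their array on all 6 arrays. In mouse 355 alone, without the cortex array of mouse 511, 15 of the 23 were higher and 8 lower, where 50.8% and 49.1% of all genes were. Without the cortex array of mouse 511, which leaves 1 cortex array, the log2 differences shrank to 0.51 (Pde10a), 0.75 (Pde1b) and 1.11 (Rgs8). Those of Adcy1, Adcy6 and Pde11a shrank to -0.66, -0.61 and -0.71, while that of Rgs17 rose from 0.86 to 1.48. In mouse 511 alone, without the cortex array of mouse 355, 6 members were at least 2-fold higher (background 1.88%) and 3 at least 2-fold lower (background 2.29%).

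Between the 2 mice, the cortex had the most members at least 2-fold apart, although the median size of the members' differences was alike in the regions (log2 0.323 in the cortex, 0.327 in the nucleus, 0.347 in the hippocampus). In the cortex 9 members (15.5%) were at least 2-fold apart between the animals, where 4.05% of all genes were, and 8 of these were higher in mouse 511. In the nucleus 5 members (8.62%) were 2-fold apart, where 5.15% of genes were, and in the hippocampus 5 (8.62%), where 3.01% were. Rgs9, an R7 protein known for its striatal form, read 5.58 and 8.12 on the cortex arrays of mouse 355 and mouse 511, and 5.77 to 6.17 on the other 4 arrays. Adcy5, the main cyclase of striatal neurons and named after its values were seen, read 6.40 and 8.0 on the 2 cortex arrays and 6.22 to 7.30 elsewhere. On the same array Pde10a, Pde7b, Rgs8, Rgs12, Rgs20 and Rgs7bp were also at least 2-fold higher, and Adcy8 was lower. Some of these differed between the mice elsewhere too, as Rgs8 was 2-fold higher in the nucleus of mouse 511 and Rgs12 in its hippocampus. Each of these differences rests on 1 array per mouse and has no replicate.

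Striatal markers moved with these genes. Of 13 measured markers of striatal projection neurons, 12 read higher in mouse 511 than in mouse 355 in the cortex, 8 of them at least 2-fold, with a median log2 difference of 1.98. Drd1, a dopamine receptor of these neurons, read 3.79 and 8.33 on the cortex arrays of mouse 355 and mouse 511, Drd2 read 5.71 and 8.91, and Penk (enkephalin) 7.47 and 10.15. The mean of the list was 5.25 and 6.98 in the cortex, 5.59 and 5.47 in the nucleus and 4.91 and 5.13 in the hippocampus. The part of striatal tissue in the values of Rgs9, Pde10a, Adcy5 and Pde7b was not tested.

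**Figure D3:**
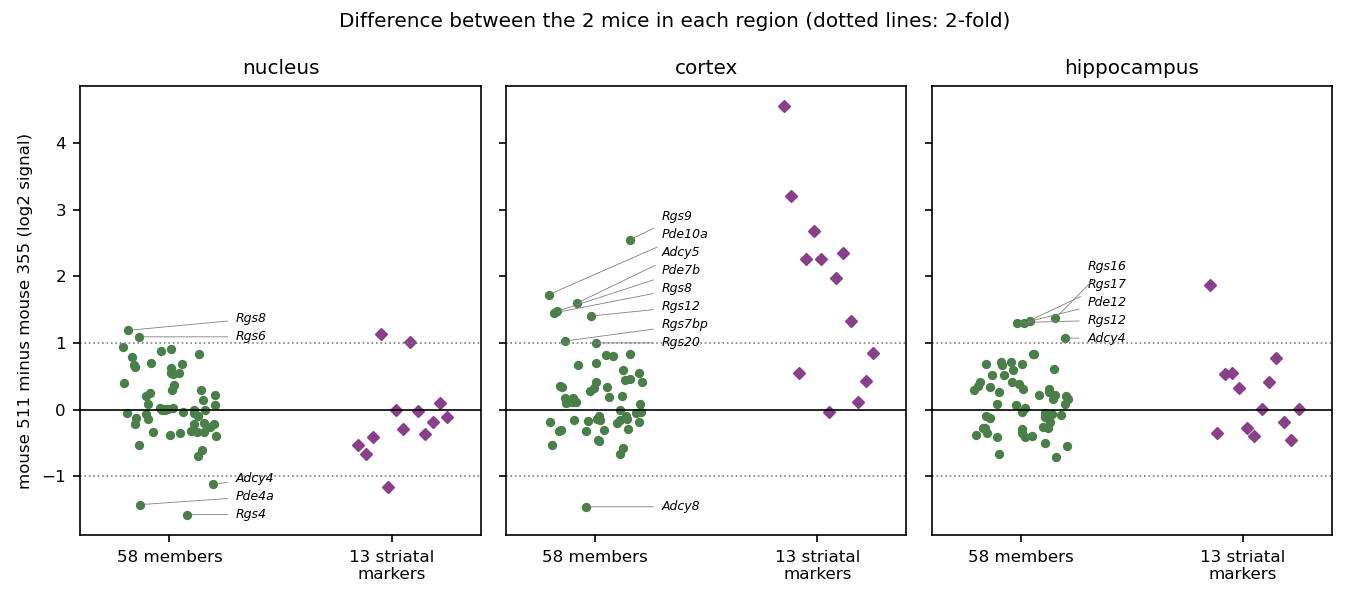
Log2 signal of mouse 511 minus mouse 355 (vertical axis) in each region for the 58 members (green circles, those at least 2-fold apart named) and 13 markers of striatal projection neurons (purple diamonds). In the cortex 8 members and 8 markers lie above the upper 2-fold line.

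Markers of other cells also differed between the regions. The mean of 7 markers of excitatory neurons of cortex and hippocampus was 4.96 and 4.68 (nucleus), 7.59 and 8.68 (cortex) and 8.36 and 8.44 (hippocampus), and all 7 were lower in the nucleus at an unadjusted p under 0.05 in both comparisons. This is the direction of Adcy1, Pde2a, Pde1a, Rgs14 and Rgs7bp. The mean of 8 markers of GABAergic interneurons was 5.64 and 5.17 (nucleus), 7.09 and 7.52 (cortex) and 7.21 and 7.37 (hippocampus), which is the same direction. At an unadjusted p under 0.05, 7 of the 8 were lower than in the cortex and 6 lower than in the hippocampus. The 9 oligodendrocyte markers had means of 8.97 and 8.92 (nucleus), 8.54 and 8.21 (cortex) and 6.34 and 7.0 (hippocampus), which is the direction of Pde8a, Rgs6, Rgs8 and Rgs17 against the hippocampus. The part of cell composition in the members' values was not tested. The 8 hypothalamic markers had means of 6.72 and 5.94 (nucleus), 4.78 and 4.24 (cortex) and 3.75 and 4.28 (hippocampus). At an unadjusted p under 0.05, 5 of them were higher than in the cortex and 6 higher than in the hippocampus. This direction, too, is that of Pde8a, Rgs6, Rgs8 and Rgs17 against the hippocampus. Of 10 astrocyte markers, 1 was higher than in the cortex and 1 lower than in the hippocampus at an unadjusted p under 0.05. The 9 microglial markers had means of 6.73 and 6.66 (nucleus), 6.95 and 7.43 (cortex) and 7.09 and 7.40 (hippocampus), lowest in the nucleus like Adcy1 and Pde2a, and 3 of them were lower than in the cortex and 2 lower than in the hippocampus at an unadjusted p under 0.05. The means of the 9 mural markers between 5.29 and 5.81. The CA2 and CA3 markers did not set the hippocampus apart, with 1 of 10 higher in the cortex at an unadjusted p under 0.05 and 0 lower.

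**Figure D4:**
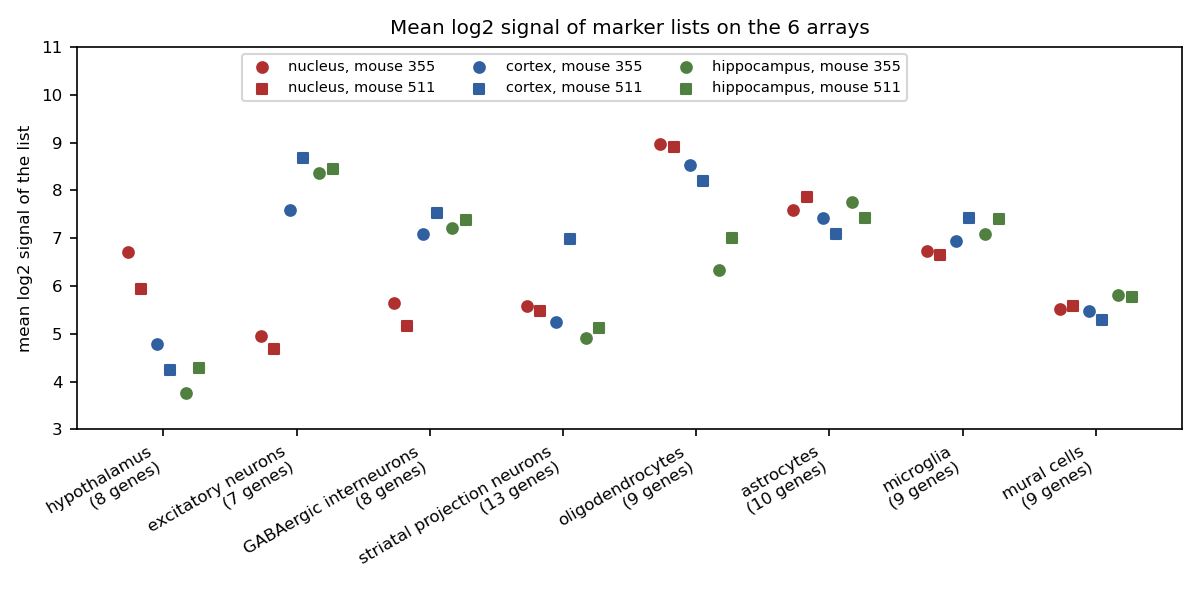
Mean log2 signal (vertical axis) of 8 marker lists on the 6 arrays, colored by region, with circles for mouse 355 and squares for mouse 511. Excitatory markers have means of 4.96 and 4.68 in the nucleus and 7.59 or more in the other regions, and the striatal list is highest in the cortex of mouse 511 (6.98).

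The partners of these proteins were read from lists of G proteins, cAMP effectors and cGMP genes. Of 12 G protein genes (alpha subunits and Gnb5), 1 was lower in the nucleus than in the cortex at an unadjusted p under 0.05, namely Gnal, the stimulatory alpha subunit of striatal and olfactory neurons, and 0 were lower or higher than in the hippocampus. Gnal, which is also on the striatal list, read 7.32 and 7.21 (nucleus), 7.69 and 8.55 (cortex) and 7.04 and 7.06 (hippocampus), highest in the cortex of mouse 511. Without that array its log2 difference to the cortex was -0.40 (SE 0.29, limma adjusted p = 1), and the unadjusted p was no longer under 0.05. Gnb5, the beta subunit that pairs with R7 proteins, read 6.91 and 5.53 (nucleus), 7.12 and 7.22 (cortex) and 6.50 and 6.76 (hippocampus), and only the nucleus of mouse 511 was low. Gnai3, an inhibitory alpha subunit, was lower in mouse 511 than in mouse 355 in all 3 regions, with a log2 difference of -0.59 between nucleus and hippocampus (SE 0.26, limma adjusted p = 0.572).

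Of 9 measured cAMP effectors, 1 had a lower signal than in the cortex and 0 differed from the hippocampus at an unadjusted p under 0.05. This was Prkar2b, a regulatory subunit of protein kinase A, at 5.95 and 5.98 (nucleus), 6.56 and 7.05 (cortex) and 6.23 and 6.58 (hippocampus). The nucleus was below all 4 other values (log2 difference to the cortex -0.84, SE 0.21, limma adjusted p = 0.527). The kinase inhibitors Pkia and Pkib had log2 differences of 0.33 and 0.35 to the cortex, with limma adjusted p-values of 0.816 and 0.747.

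Of 9 genes of cGMP synthesis and action, 2 were lower in the nucleus than in the cortex at an unadjusted p under 0.05, the subunits Gucy1a1 and Gucy1b1 of the nitric oxide receptor, soluble guanylyl cyclase. Gucy1b1 read 7.74 and 7.96 (nucleus), 8.49 and 8.90 (cortex) and 8.71 and 8.57 (hippocampus). It did not overlap with either region, with log2 differences of -0.84 (SE 0.22, limma adjusted p = 0.539) and -0.79 (SE 0.22, limma adjusted p = 0.41). Gucy1a1 read 7.48 and 7.21 (nucleus), 7.85 and 9.06 (cortex) and 7.52 and 7.77 (hippocampus), again highest in the cortex of mouse 511. Without that array, the log2 differences of Gucy1a1 (-0.51), Gucy1b1 (-0.66) and Prkar2b (-0.69) to the cortex no longer had an unadjusted p under 0.05. Prkg2, a cGMP-dependent kinase, read 3.48 and 4.20 (nucleus), 3.50 and 3.63 (cortex) and 3.07 and 3.03 (hippocampus), and was higher than in the hippocampus at an unadjusted p under 0.05 (limma adjusted p = 0.468). In the 3 lists 0 genes had an adjusted p under 0.05 and 0 were at least 2-fold apart in both mice in any comparison.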

How the data were processed

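The authors deposited log2 values. Their processing notes name RMA, Affymetrix Expression Console (1.2.1.20), R 2.14.2, limma and Partek. The build and annotation behind them were not stated in the sources used. RMA sets the arrays to a common distribution, so a difference shared by most genes would not be seen. Of 41345 probe sets, 190 controls were left out. Gene symbols come from the platform annotation, with 23521 probe sets of 1 symbol and 1820 of several, and all 61 member probe sets matched the reference names of GRCm38.p6 by gene ID.

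Regions were compared with limma 3.58.1 in R 4.3.3 on the log2 values as deposited, with mouse as a fixed block because the regions come from the same 2 animals, 2 residual and 2.767 prior degrees of freedom, and Benjamini-Hochberg adjustment over 41155 probe sets. Differences between the mice correlated across regions at 0.059 to 0.079 over probe sets. The fold rule asks for a log2 difference of at least 1 in both mice and has no test. Precision is limited by the number of arrays, since there are 2 per region. The study chose these mice for the quality and amount of their RNA.

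The members, roles, lists of partners and markers, and tests were chosen with earlier results of these data known. Genes were named if at least 2-fold apart in both mice, if their 2 arrays of a region differed by 2 or more on the log2 scale, or at an unadjusted p under 0.05 in at least 2 comparisons (13 members), with up to 3 genes per partner list (9 genes). Others are said to be named after their values were seen. Alternatives were no block, each array left out, probe sets above the median or of 1 symbol, controls included, an intensity trend, cyclic loess, median centring, the mean over probe sets, a fold of 1.5 and members above the median. The fit was also run on simulated data with independent noise and no mouse effect. That setting differs from regions of the same mice, so it cannot test the p-values given here. Python 3.11.15, pandas 2.3.3 and matplotlib 3.10.9 served for summaries and plots.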

Additional observations from a re-analysis of the deposited data

How the results depend on the processing

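Of 214 alternative values for the counts of members, 165 stayed within 1.5 times the main count and 49 did not. Some of the 165 could not move, since a fold count between regions does not use the arrays of a region outside that comparison. Without the replicate block, Pde2a was called against the hippocampus (1 member in place of 0, adjusted p = 0.0426), the members higher in the nucleus than in the cortex by the unadjusted p went to 0, and those higher in the cortex than in the hippocampus to 1. With probe sets of 1 gene symbol, where fewer are tested, Adcy1 and Pde2a were called against the hippocampus (2 members, adjusted p = 0.0397). Over all alternatives their adjusted p there lay between 0.0397 and 0.579, and against the cortex between 0.125 and 0.854 for Adcy1 and 0.0527 and 0.854 for Pde2a. An intensity trend gave 0 members higher than in the cortex by the unadjusted p. Members 2-fold higher than in the hippocampus were 2 after cyclic loess and 0 after median centring. With a fold of 1.5 the counts were 4 higher and 7 lower than in the hippocampus, 4 lower in all 4 comparisons, and 3 higher and 2 lower between cortex and hippocampus. The causes were not tested.

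With each array left out in turn, the counts by adjusted p stayed at 0 in all 3 comparisons. By the unadjusted p, members higher and lower than in the cortex ranged from 0 to 3 and 4 to 11, than in the hippocampus from 2 to 5 and 6 to 13, and between cortex and hippocampus from 2 to 7 and 0 to 5. By the fold rule, which then rests on 1 mouse, they ranged from 0 to 3 and 5 to 13, from 1 to 4 and 4 to 10, and from 0 to 6 and 0 to 3. A rule on 1 mouse is the weaker one, so these fold counts could not fall below the main counts. In all 4 comparisons 0 to 2 were 2-fold higher and 2 to 8 lower, the 8 without the nucleus array of mouse 355. Controls included, probe sets or members above the median and the mean over probe sets moved no count by over 1.5 times. Of the 13 members at or below the median signal, a difference may be missed at this brightness.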
